A study of Homo sapiens with 50 samples.

Results

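The loci described here are stretches of the genome where the deposited transcript assembly of HepaRG cells holds transcripts but no annotated gene. They carry a running number with the prefix MSTRG, and none of their transcripts has a gene name. Of 14392 such loci in the table, 2723 (18.9%) reached at least 1 FPKM (fragments scaled by transcript length and by the fragments of the library) in at least 5 of 49 libraries, and these 2723, selected on their measured FPKM, are the loci described. The whole table holds 74174 genes and loci, of which 19639 passed the same filter and were tested together.

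HepaRG is a human hepatic cell line that differentiates into cultures of hepatocyte-like and biliary-like cells. Differentiated cells were exposed from day 8 to day 14 to 1 of 3 herbicides (mesotrione, isoxaflutole and quizalofop-p-ethyl) at 0.1 µM, 10 µM or 1 mM, or to no herbicide (control), which gave 10 groups of 5 libraries. All 10 groups were kept in test medium with 2% fetal bovine serum and 1% DMSO over those days. Mesotrione and isoxaflutole block a plant enzyme of tyrosine degradation, and quizalofop-p-ethyl blocks fatty acid synthesis in grasses. Whether the 5 libraries of a group are separate cultures is not in the labels. The p-values therefore reflect the spread among these libraries, and that spread may be technical.

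A transcript assembler joins overlapping reads into transcripts whether or not a gene is annotated there. Loci without a gene name can therefore hold long non-coding RNAs (lncRNAs), RNA from the other strand of a known gene, pieces of introns, RNA read past a gene's 3′ end, small RNA genes that the annotation used leaves out, or reads placed among near-identical copies of a sequence. Hepatocytes devote much of their RNA to secreted plasma proteins such as fibrinogen, so loci lying in or beside those genes can be abundant in liver cells.

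Sequences come first for the loci whose structure could be read against the genes they lie in. Of the 639 loci with spliced transcripts, 13 lie wholly within annotated exons, all 13 of them within 1 exon and 12 on the strand opposite to the gene. Such a transcript skips a piece of an exon of another gene. The locus MSTRG.32045 (chr4:154586233-154586638, GRCh38, plus strand) lies within an exon of FGA, which encodes the fibrinogen alpha chain and is on the minus strand. That exon holds a tandem repeat of 39 bases. Its units 1 to 4 (chr4:154586516-154586554, chr4:154586477-154586515, chr4:154586438-154586476 and chr4:154586399-154586437) are printed 5′ to 3′ on the coding strand of FGA, to show how alike the copies are, with capitals for the 29 of 39 bases shared by all 4.
FGA unit 1: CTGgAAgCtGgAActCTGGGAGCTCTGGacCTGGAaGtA
FGA unit 2: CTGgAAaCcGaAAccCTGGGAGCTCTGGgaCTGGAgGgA
FGA unit 3: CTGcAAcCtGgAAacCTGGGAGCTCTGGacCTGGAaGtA
FGA unit 4: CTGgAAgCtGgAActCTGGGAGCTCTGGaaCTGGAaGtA

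The locus MSTRG.25683 (chr20:62813127-62813635, minus strand) lies within an exon of OGFR, the opioid growth factor receptor gene, on the plus strand. The OGFR repeat has units of 60 bases, and 4 of them (chr20:62813163-62813222, chr20:62813223-62813282, chr20:62813283-62813342 and chr20:62813343-62813402) share 55 bases, in capitals.
OGFR unit 1: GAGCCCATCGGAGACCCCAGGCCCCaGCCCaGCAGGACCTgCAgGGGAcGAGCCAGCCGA
OGFR unit 2: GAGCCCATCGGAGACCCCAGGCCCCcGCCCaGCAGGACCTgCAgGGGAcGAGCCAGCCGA
OGFR unit 3: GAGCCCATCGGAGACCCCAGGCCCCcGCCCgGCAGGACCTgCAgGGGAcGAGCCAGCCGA
OGFR unit 4: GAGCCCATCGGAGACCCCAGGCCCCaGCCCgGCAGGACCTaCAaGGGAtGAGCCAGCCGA

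The bases each transcript skips, summed over its junctions, were set against the repeat unit, with 1 base of tolerance per junction. Single skipped pieces were not measured. The sum made up whole units in 4 of 4 transcripts over FGA, 12 of 12 over OGFR and 81 of 81 over AHNAK2. That held for 6 of 7 over BOK, 1 of 2 over EVC, 0 of 1 over MKI67 and 1 of 128 over AHNAK. AHNAK2 encodes a very large scaffold protein with repeats of 495 bases. Identity at the spacing of the repeat was 89.7% for AHNAK2, 81.5% for OGFR, 73.4% for EVC, 71.2% for BOK, 61.8% for AHNAK, 61.3% for FGA and 56.6% for MKI67. FGA and AHNAK were thus close in identity and far apart in how many transcripts skipped whole units in sum. Over all 13 loci, 7 had a repeat of at least 70% identity at some spacing of 15 to 600 bases. Of 15234 genes with an exon of at least 679 bases, 134 (0.88%) reached that identity in the central 679 bases of their longest exon. The 13 loci were each scored over their own span, so these shares are not like measures.

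**Figure D1:**
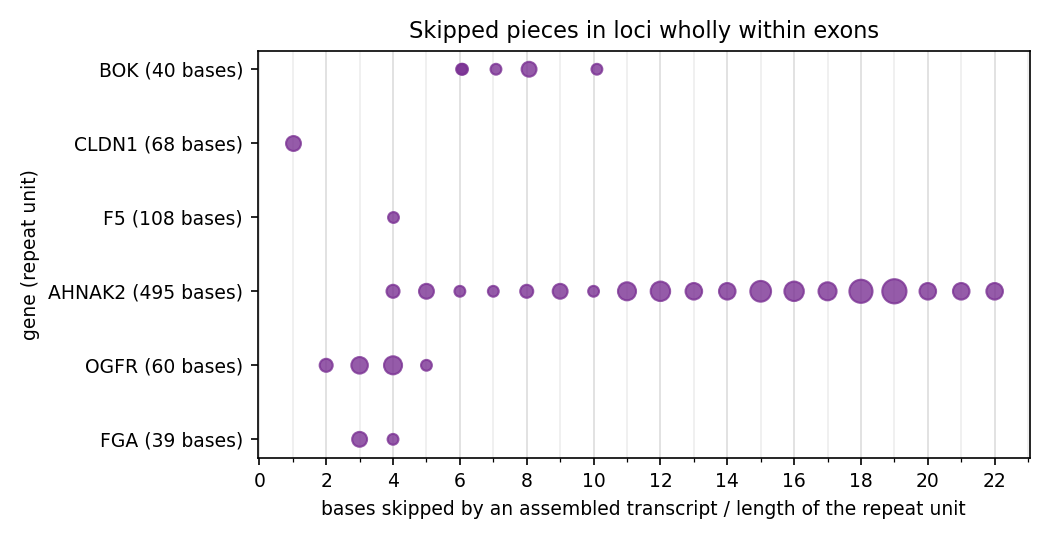
Bases skipped by assembled transcripts in 6 of the 13 loci that lie wholly within an exon. The x axis is the number of bases a transcript skips, summed over its junctions, divided by the length of the exon's repeat unit. Each row is a gene with its unit in bases, and larger points stand for more transcripts. Points sit at whole numbers for FGA (3 and 4 units), OGFR and AHNAK2 (up to 22 units), and close to them for BOK.

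The libraries were made with a stranded kit, but no source used here says if assembly and counting took the strand into account. For loci opposite to a gene, reads of the gene and of the locus can therefore not be told apart. Whether these loci are transcribed from the opposite strand was not tested.

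Most of the 2723 loci were short and unspliced. A single exon made up 2084 of them (76.5%), against 93.6% of all 14392 loci without a named gene, and 639 had more exons, up to 9. No strand was assigned to 1777 (65.3%, all of them unspliced), while 436 were placed on the plus and 510 on the minus strand. Transcript length ran from 200 to 41158 bases with a median of 473, longer than the median of 305 over all loci without a named gene. Since the filter on level chose them, these differences from all 14392 loci are a description and not a test.

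Most of these loci lie in or near known genes. By the named genes of the same table, 735 loci without a strand overlapped a gene, 572 without a strand lay within 5 kb of one (21.0%) and 704 lay farther away (25.9%). Opposite to a gene were 356 loci (13.1%, against 3.88% of all loci without a named gene), on the same strand within a gene 148 (5.44%), just after a gene's 3′ end 99 (3.64%), head to head with a gene 32 (1.18%) and otherwise near 77 (2.83%). With a limit of 20 kb in place of 5 kb, 435 loci counted as distant. In 2400 of the loci no base fell in an exon of GENCODE v29, and 942 overlapped neither a GENCODE v29 nor a RefSeq gene.

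**Figure D2:**
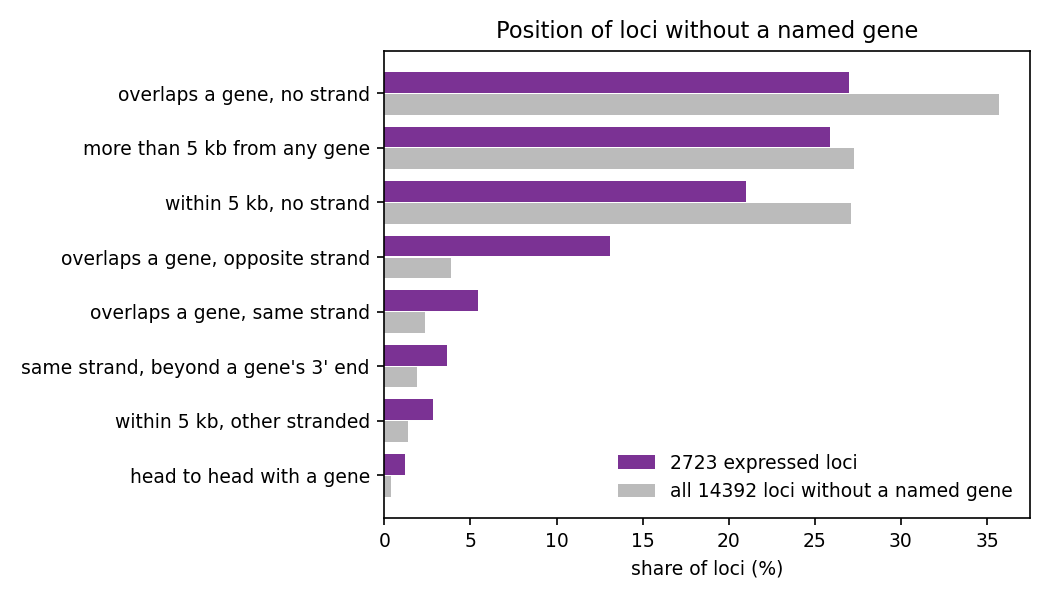
Position of loci relative to named genes. Bars give the share of loci in percent, in purple for the 2723 expressed loci and in grey for all 14392 loci without a named gene. Opposite-strand loci made up 13.1% of the expressed loci and 3.88% of all.

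Their levels were low. The mean over the 5 control libraries had a median of 0.701 FPKM over the 2723 loci, against 3.96 FPKM over all 19639 features tested. Over the 49 libraries, the median was at least 1 FPKM in 520 loci, at least 10 in 34 and at least 100 in 15. A level of 1 FPKM was reached in 5 to 9 libraries by 1579 loci and in all 49 by 123. Beside the threshold of 5 libraries, the 5th highest library of MSTRG.22248, MSTRG.32661 and MSTRG.38183 stood at 1.0001 FPKM, just inside, and that of MSTRG.32804, MSTRG.32803 and MSTRG.45651 at 0.9999 FPKM, just outside. At the estimated depth of 7180000 to 34240000 fragments per library, 1 FPKM on a transcript of median length stands for 3.39 to 16.2 fragments, so single values near 1 FPKM carry a large counting error.

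A few loci were far more abundant than the rest. Together the loci took 1.37% to 8.06% of the summed FPKM of the 49 libraries. The most abundant, MSTRG.11692 (chr14:49812834-49862786, plus strand), spans NEMF and 2 genes of 7SL RNA, the RNA of the signal recognition particle, all on the minus strand. Its control libraries held 15614, 14834, 21544, 17268 and 11742 FPKM, and its 1 mM quizalofop-p-ethyl libraries 13463, 35856, 30621, 41947 and 29424 FPKM. The groups overlapped, and the difference did not pass the test (adjusted p = 0.597, limma). The locus reached 1 FPKM in 48 of the 49 libraries, and the spread used by the test is shared by all groups. Another 22 loci lie on copies of ribosomal RNA genes and took 0.465% to 1.93% of the summed FPKM.

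One library stood apart. Replicate 5 of 10 µM quizalofop-p-ethyl had an estimated 3780000 fragments, 115 of the loci at 1 FPKM or more against 552 to 1356 in the others, and 37.3% of its summed FPKM on the ribosomal RNA loci. It took no part in choosing the loci and is left out of the fit, so that group has 4 libraries. With it in the fit fewer loci passed at 1 mM, as given beside each count.

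Levels were compared as log2(FPKM + 1) with limma over all features, with Benjamini-Hochberg adjustment and a threshold of 0.05. Fold changes on this scale understate the change of loci near 0. Hepatocyte identity was checked with 12 marker genes. Their summed level ran from 21089 to 24396 FPKM in control and from 282.6 to 6014 FPKM at 1 mM quizalofop-p-ethyl, where 12 of 12 fell. Of the other marker lists at that dose, 3 of 5 tested biliary genes, 5 of 6 mesenchymal, 1 of 1 endothelial and 3 of 4 leukocyte genes fell, and 1 mesenchymal gene rose. In bulk RNA, fewer cells of a type and less RNA per cell cannot be told apart.

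Quizalofop-p-ethyl at 1 mM changed 705 of the 2723 loci (25.9%), of which 159 rose and 546 fell. Over all features tested, 43.4% were called, 17.7% higher and 25.7% lower. Their median log2 fold change was −0.20, against −0.08 over all features. With the library that stands apart, 509 loci passed. The share called differed with structure and level. It was 42.4% of the spliced loci (271 of 639) and 20.8% of the unspliced (434 of 2084), beside 43.5% of 177 named LINC genes and 43.6% of 289 named antisense genes. By mean level, 23.8% of the loci and 31.8% of named genes were called at 0.5 to 1 FPKM, 45.3% and 41.3% at 1 to 2 FPKM, 49.1% and 46.4% at 2 to 5 FPKM, and 46.6% and 55.0% at 5 FPKM or more. Differences between these shares were not tested. The libraries of the 2 groups did not overlap in 466 loci (17.1%, against 30.5% of all features). The filter can favour a rise here: 209 loci had fewer than 5 libraries at 1 FPKM outside this group, and 56 of them were called higher. It can also favour a fall, in every comparison with control: 315 loci had fewer than 5 libraries at 1 FPKM outside control. The part of the filter in the excess of falls was not tested.

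The loci with the largest falls by the naming rule include loci in or beside FGA, FGB, GSTA2, ORM1, ADH1B, HPX and FFAR4. MSTRG.32045, opposite to the FGA repeat printed above, held 265.2, 188.3, 290.4, 379.1 and 289.4 FPKM in control. At 1 mM quizalofop-p-ethyl it held 13.2, 1.23, 0.0495, 0.023 and 0 FPKM. Every treated library was far below every control, and replicate 1 was the highest treated one. The log2 fold change was −7.09 (SE 0.38, adjusted p = 2.06e-19). FGA itself fell from 940.9 to 92.5 FPKM (log2 fold change −3.76, SE 0.40). The fall of the locus had the larger size, a difference between locus and gene that was not tested.

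MSTRG.32041 (chr4:154572280-154572768, no strand) begins 1193 bases beyond the 3′ end of FGB, the fibrinogen beta chain gene, in the deposited annotation. RefSeq places it within FGB. Its controls held 69.4, 68.9, 77.1, 79.1 and 114.9 FPKM and the treated libraries 8.55, 0.411, 2.95, 1.7 and 0.106 FPKM, with no overlap. It fell by 4.88 on the log2 scale (SE 0.30, adjusted p = 1.13e-17), and FGB fell by 4.96 (SE 0.43). Over the 44 libraries outside 1 mM quizalofop-p-ethyl, locus and gene had Pearson r = 0.95 and Spearman rho = 0.89. These points share library and depth, so the correlation is a description.

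MSTRG.36028 (chr6:52750431-52831972, plus strand) runs opposite to several GSTA genes, glutathione transferases that detoxify reactive compounds, from GSTA2 to GSTA5 as the deposited table names them. Its controls held 148, 50.4, 50.9, 52.6 and 22 FPKM and the treated libraries 4.2, 0.327, 1.7, 1.76 and 0.111 FPKM. No treated library reached a control, and the fall was 4.61 on the log2 scale (SE 0.62, adjusted p = 3.5e-08). GSTA2 fell from 67.6 to 2.85 FPKM and GSTA1 from 400.3 to 28 FPKM.

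MSTRG.43370 (chr9:114322806-114330725, minus strand) runs opposite to ORM1 and ORM2, acute-phase plasma proteins. Its controls held 109.8, 153.5, 201.8, 158.3 and 495.3 FPKM and the treated libraries 31.8, 9.67, 19.7, 12.2 and 2.2 FPKM. It fell by 3.96 (SE 0.45, adjusted p = 7.27e-10), with no overlap, and ORM1 fell by 3.56. MSTRG.31498 (chr4:99315956-99345153, plus strand) has 2 exons, opposite to ADH1B at one end and ADH1C at the other, both alcohol dehydrogenases. Its controls held 14.7, 9.06, 14.7, 18.1 and 15.9 FPKM, and 4 of 5 treated libraries were listed at 0, with 0.739 FPKM in replicate 4.

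MSTRG.6192 (chr11:6430633-6431465, plus strand), opposite to the haem carrier gene HPX, held 6.47, 6.02, 6.53, 5.82 and 9.24 FPKM in control. The treated libraries held 0.631, 0.186, 0, 0.103 and 0 FPKM. It fell by 2.73 (SE 0.30, adjusted p = 1.79e-10), and HPX fell by 4.35. MSTRG.5373 (chr10:93590619-93591206), in an intron of FFAR4, a receptor for long-chain fatty acids, held 14.9, 14.5, 15.5, 18.2 and 16.8 FPKM in control and 2.03, 0.842, 1.09, 0.769 and 0.583 FPKM when treated. It fell by 3.07 (SE 0.18, adjusted p = 2.16e-18), and FFAR4 did not pass the filter on level. The deposited annotation and GENCODE v29 place this locus within FFAR4, whereas it overlaps no RefSeq gene.

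**Figure D3:**
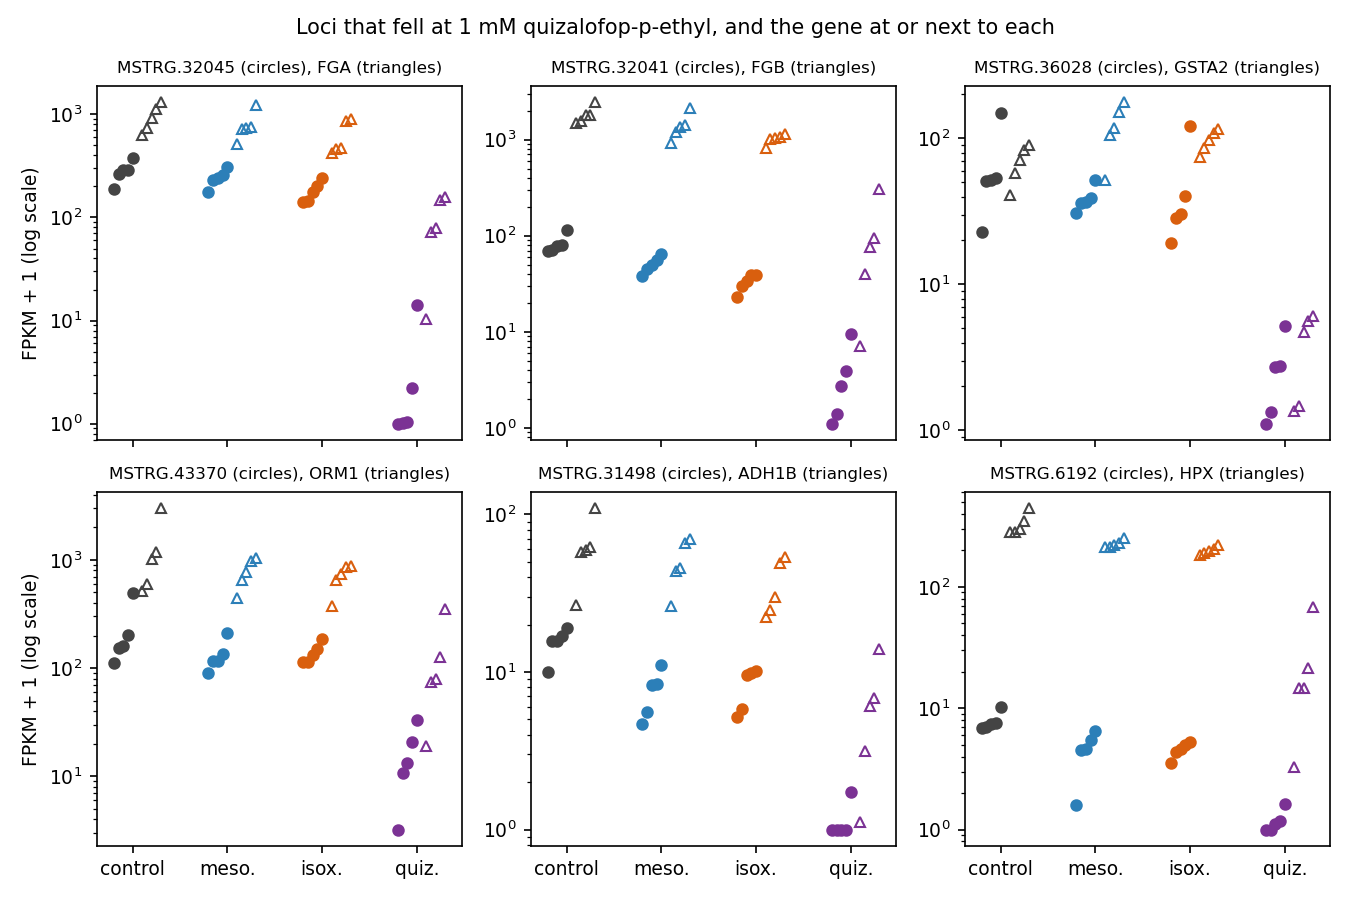
Levels of 6 loci (circles) and of the gene at or next to each (open triangles), as FPKM + 1 on a log axis, in control and at 1 mM mesotrione (meso.), isoxaflutole (isox.) and quizalofop-p-ethyl (quiz.). Each point is 1 library, ordered by level within a group. All quizalofop-p-ethyl circles lie below all control circles, for example 0 to 13.2 FPKM against 188.3 to 379.1 FPKM for MSTRG.32045.

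Among spliced loci opposite to a gene, 11 begin in one gene and end in another whose symbol shares its stem, a set chosen after values were seen. The MSTRG.36028 and MSTRG.31498 loci above are of this kind. A shared stem does not show that genes are copies, as with AC008758.6 and AC008758.1 or AC105052.1 and AC105052.3, and likeness was not tested. Where the genes are near-identical copies, shared reads make such a locus uncertain. Other cases were MSTRG.35581, between HLA-C and HLA-B, at 106.7 FPKM in control and 128.8 FPKM at 1 mM quizalofop-p-ethyl (adjusted p = 0.0918), and MSTRG.35019, between TUBB2A and TUBB2BP1. MSTRG.35019 fell from 16.4 to 7.59 FPKM (adjusted p = 1.78e-05) and TUBB2A from 34.8 to 20.6 FPKM. MSTRG.435, with ends in CROCCP4 and CROCC, rose from 0.463 to 4.72 FPKM (log2 fold change 1.88, SE 0.16), while CROCC held 2.74 and 2.16 FPKM (adjusted p = 0.305).

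Loci over repeats of a long exon gave mixed results. MSTRG.6915, opposite to AHNAK, a large scaffold protein, held 295.6, 350.4, 269.9, 279 and 309.9 FPKM in control and 120.1, 139.5, 182, 158.7 and 77.3 FPKM at 1 mM quizalofop-p-ethyl. It fell by 1.20 (SE 0.14, adjusted p = 9.65e-10) and AHNAK by 0.90. With the library that stands apart in the fit, the call of MSTRG.6915 was lost (adjusted p = 0.0614). MSTRG.25683, opposite to the OGFR repeat, held 9.42 FPKM in control and 13.6 FPKM when treated, which did not pass (adjusted p = 0.0725). MSTRG.25683 was chosen after its values were seen.

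The loci with the largest rises at 1 mM quizalofop-p-ethyl by the naming rule include one opposite to RUNX1 and one beyond GDF15. MSTRG.26168 (chr21:34835530-34954927, plus strand) is spliced, lies opposite to RUNX1, a transcription factor of blood cell development, and overlaps the RefSeq lncRNA RUNX1-AS1. Its controls held 1, 1.61, 1.02, 0.978 and 1.07 FPKM and the treated libraries 11.2, 14.3, 11.2, 8.69 and 13.8 FPKM. It rose by 2.58 on the log2 scale (SE 0.11, adjusted p = 2.36e-23), with no overlap. RUNX1 rose less, from 5.45 to 7.75 FPKM (log2 fold change 0.41, SE 0.12), and its groups overlapped.

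MSTRG.20086 (chr19:18389627-18389914) begins 450 bases beyond the 3′ end of GDF15, a stress-induced cytokine. Its controls held 0, 0.62, 0.276, 0 and 0.881 FPKM and the treated libraries 2.85, 6.06, 2.61, 4.78 and 6.34 FPKM. It rose by 2.01 (SE 0.21, adjusted p = 3.36e-11), and GDF15 rose from 109.7 to 1238 FPKM (log2 fold change 3.38, SE 0.25). The locus stood far below the level of GDF15 in both groups. It reached 1 FPKM in 9 libraries, all 5 of this group among them, so it passed the filter only through the group in which it was high.

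Loci at 3 further genes were chosen after their values were seen. MSTRG.20074, 324 bases beyond the 3′ end of JUND, an AP-1 subunit, rose from 1.09 to 6.7 FPKM (log2 fold change 1.74, SE 0.22), and JUND rose by 1.29. MSTRG.4159, 279 bases before the start of KLF6, a zinc finger factor, rose from 0.292 to 2.39 FPKM (log2 fold change 1.38, SE 0.10), and KLF6 rose by 0.89. MSTRG.34360, within HBEGF, an epidermal growth factor family ligand, rose from 0.167 to 2.16 FPKM (log2 fold change 1.44, SE 0.17), and HBEGF rose by 1.24. The values of MSTRG.34360 rest on few fragments, an estimated 0 to 2 per control library and 5 to 9 per treated library. MSTRG.4159 and MSTRG.34360 reached 1 FPKM in 5 and 7 libraries and likewise passed the filter only through this group.

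Further loci picked by the naming rule also rose. MSTRG.32331 (chr4:185112392-185112665), farther than 5 kb from any named gene, held 0.827, 0.181, 0.623, 0.318 and 1.18 FPKM in control and 7.83, 9.32, 8.37, 7.92 and 8.4 FPKM when treated (log2 fold change 2.56, SE 0.29, adjusted p = 4.68e-10). MSTRG.29922 (chr3:190424654-190425051), 3603 bases beyond TMEM207, rose from 0.989 to 8.71 FPKM (log2 fold change 2.28, SE 0.19). MSTRG.27313 (chr22:45544006-45544439), in an intron of FBLN1, an extracellular matrix gene, rose from 0.288 to 4.06 FPKM while FBLN1 fell from 4.28 to 2.37 FPKM. MSTRG.33993 (chr5:115375552-115375955) rose from 0.177 to 4.58 FPKM and reached 1 FPKM in 5 libraries, all of this group, so it entered the filter through the group in which it was high. MSTRG.44034, on an unplaced scaffold 523 bases beyond a U1 RNA gene, rose from 0.878 to 11 FPKM and the U1 gene from 2.21 to 5.4 FPKM.

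**Figure D4:**
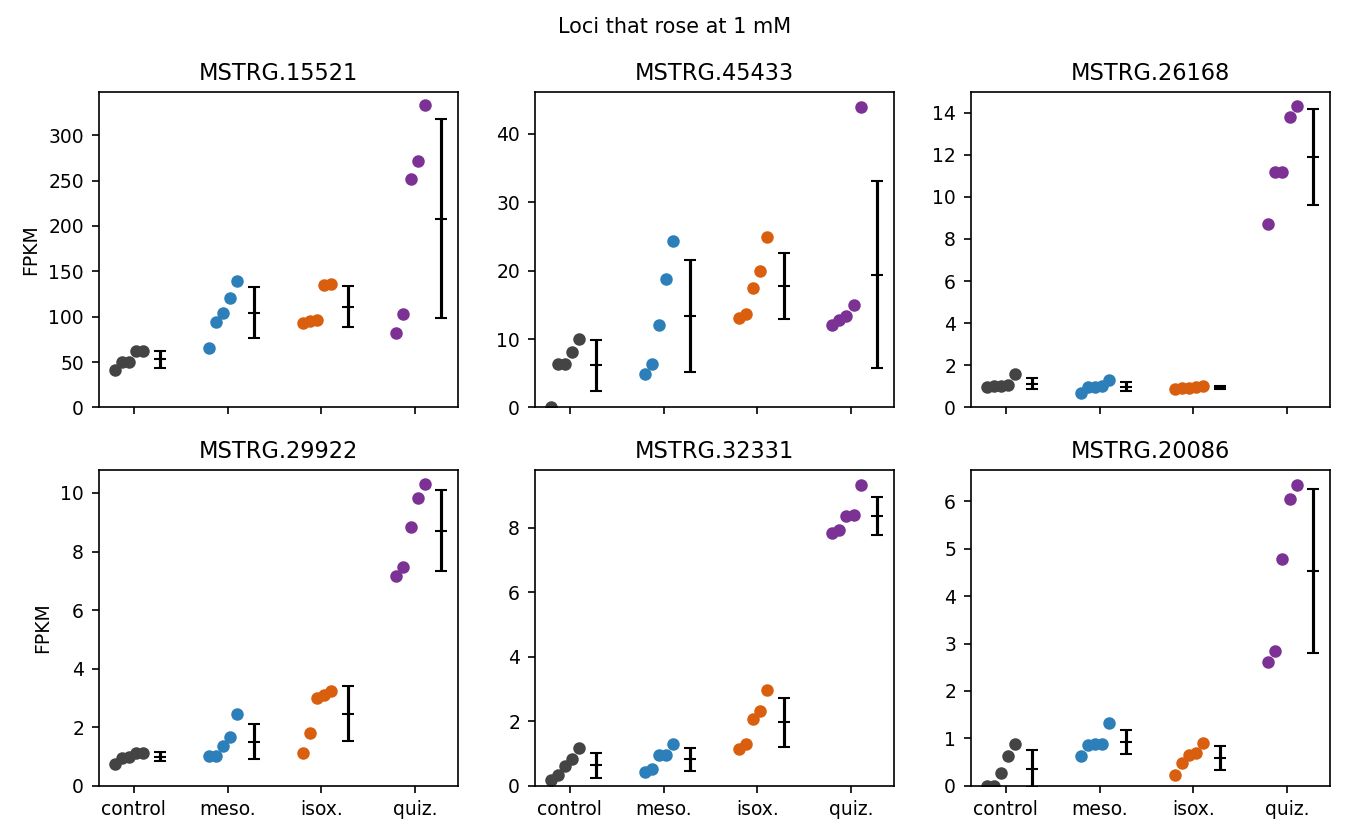
Levels of 6 loci that rose at 1 mM of at least 1 herbicide, in FPKM, in control and at 1 mM mesotrione (meso.), isoxaflutole (isox.) and quizalofop-p-ethyl (quiz.). Points are libraries ordered by level within a group, and bars beside them are mean ± SD of 5 libraries, drawn from 0 where the lower end would fall below it. For MSTRG.26168 the quizalofop-p-ethyl libraries sit between 8.69 and 14.3 FPKM and the other groups shown at or below 1.61 FPKM.

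Where a locus and its neighbour were both called, most pairs had the same direction. At 1 mM quizalofop-p-ethyl, 410 loci beyond a 3′ end had a tested neighbour, and in 65 both were called, 59 in the same direction. For loci before a gene's 5′ start it was 14 of 20, for loci opposite to a gene 50 of 58, for loci within a gene on its strand 15 of 15, and for loci without a strand within a gene 47 of 54. In the same 5 classes and order, 36, 13, 26, 7 and 31 called loci had a tested neighbour that was not called. Both values of a pair come from the same libraries, and falls outnumber rises among loci and genes alike, so these counts are a description.

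Long non-coding RNAs made up part of the loci by another annotation. Of 902 loci with a strand on a chromosome, 55 began within 200 bases of a RefSeq gene start on the same strand, 48 of them starts of lncRNA genes. Of those 48, 11 fell and 6 rose at 1 mM quizalofop-p-ethyl, beside 43.4% of all features called. The following 3 were chosen after their values were seen. MSTRG.33262 (chr5:57650543-57680201, plus strand), at the RefSeq lncRNA LOC101928505, held 3.18, 2.57, 2.49, 2.79 and 2.47 FPKM in control and 0.063, 0.115, 0.0714, 0.0212 and 0.0378 FPKM when treated. It fell by 1.80 (SE 0.12, adjusted p = 3.99e-17), with no overlap. MSTRG.1084, at LOC105378678, fell from 1.97 to 0.119 FPKM, and MSTRG.15376, at LOC105371291, from 1.69 to 0.0412 FPKM.

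The promoter of LOC101928505 (RefSeq, GRCh38.p14, chr5:57650410-57650709, plus strand, 250 bases before to 50 after the start) is printed because the locus that begins there fell to near 0 and because it holds the motif TGTTTAC, or its reverse complement, at the places in capitals. That motif is bound by FOXA factors of liver cells. It was absent, on either strand, from the promoters of LOC105378678 and LOC105371291, whose loci also fell. As assembled, MSTRG.33262 begins 117 bases before the RefSeq start. The matches begin at −118 and −3 from the RefSeq start, so the first spans the start of the locus and the second lies inside the locus.
LOC101928505 promoter: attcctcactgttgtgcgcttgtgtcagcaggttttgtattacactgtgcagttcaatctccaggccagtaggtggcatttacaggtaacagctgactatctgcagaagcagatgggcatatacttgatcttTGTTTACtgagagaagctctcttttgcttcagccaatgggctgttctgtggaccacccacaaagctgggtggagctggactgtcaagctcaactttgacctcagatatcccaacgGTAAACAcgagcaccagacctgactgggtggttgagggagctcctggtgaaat

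TGTTTAC, on either strand, was in 4 of the 48 lncRNA promoters (8.33%) and in 3.42% of all 35116 promoters of that length. TATAAA was in 16.7% and 11.5%. The motifs CAAAGTCCA (HNF4A, 0.384% of all promoters) and TTGCGCAA (CEBP, 0.151%) were in 0 of the 48, which says only that these letters are not in these windows. A match is not a binding site.

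Of 34 expressed loci over transfer RNA (tRNA) genes, 18 rose at 1 mM quizalofop-p-ethyl. They were taken as a group after their values were seen. By span, 53 loci without a named gene overlap a RefSeq tRNA gene, and 34 of these are among the 2723. Of the 34, 18 rose and 0 fell, beside 17.7% of all features called higher, and their median log2 fold change was 0.58. Of the 29 that had 5 libraries at 1 FPKM outside this group, 14 rose. Loci of 216 to 4681 bases are longer than a tRNA, so they hold flanking bases too. The control means of the 34 had a median of 0.504 FPKM, and 10 of them were listed at 0 in 1 or more controls. Single calls can therefore rest on few fragments. Leaving out 1 library in turn, 14 to 19 of the 34 were higher at 1 mM quizalofop-p-ethyl. Under 1 mM isoxaflutole 5 of the 34 rose, beside 2.24% of all features called higher, and 0 fell, and under 1 mM mesotrione 0 rose and 0 fell. Against 1 mM isoxaflutole and against 1 mM mesotrione, 8 and 13 of the 34 were higher at 1 mM quizalofop-p-ethyl, beside 16.1% and 17.4% of all features, and 0 were lower.

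The level over all 53 tRNA loci, with no filter, was summed per library. It was 43.2, 40.5, 35.6, 27.7 and 37.5 FPKM in control and 65.4, 104.5, 107.5, 93.6 and 75.1 FPKM at 1 mM quizalofop-p-ethyl, with no overlap. It averaged 63.6 ± 17.4 FPKM (SD, n = 5) at 1 mM isoxaflutole and 54.4 ± 14.7 FPKM (SD, n = 5) at 1 mM mesotrione, and both overlapped the control range. At 10 µM isoxaflutole the sum ran from 44.9 to 68.3 FPKM (57.2 ± 9.75, SD, n = 5), above every control. The other lower-dose groups averaged 44.2 to 48.4 FPKM and overlapped control, whose mean of 36.9 ± 5.89 FPKM (SD, n = 5) was the lowest of the 10 groups. The log2 fold change was above 0 in 30 of the 34 expressed tRNA loci at 1 mM quizalofop-p-ethyl, in 31 at 10 µM isoxaflutole and in 22 to 29 in the other treated groups, all against the same controls. At the lower doses 0 of the 34 passed the limma test. Every treated library lay above every control in 15 of the 53 (28.3%) at 1 mM quizalofop-p-ethyl, against 2.74% of all loci without a named gene, and below every control in 0. These sets are unlike in level: 34 of the 53 passed the filter on level, against 18.9% of all loci without a named gene. The difference between the shares was not tested. The tRNA locus with the largest rise at 1 mM quizalofop-p-ethyl by the naming rule was MSTRG.11229 (chr14:20632999-20633511), over the proline tRNA gene TRP-TGG1-1. It held 0.581, 0.918, 0.6, 0.253 and 1.31 FPKM in control and 5.18, 7.45, 8.39, 8.64 and 6.91 FPKM when treated (log2 fold change 2.28, SE 0.21, adjusted p = 2.72e-12). MSTRG.35390 (chr6:27688015-27688553), over the isoleucine tRNA gene TRI-AAT2-1, rose from 11.6 to 21.4 FPKM (log2 fold change 0.81, SE 0.20) and to 20.7 FPKM at 1 mM isoxaflutole (log2 fold change 0.76, SE 0.20, adjusted p = 0.013). The isoxaflutole call of MSTRG.35390 was lost without isoxaflutole replicate 2 and in the fit of 50 libraries, where its adjusted p was at most 0.513.

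**Figure D5:**
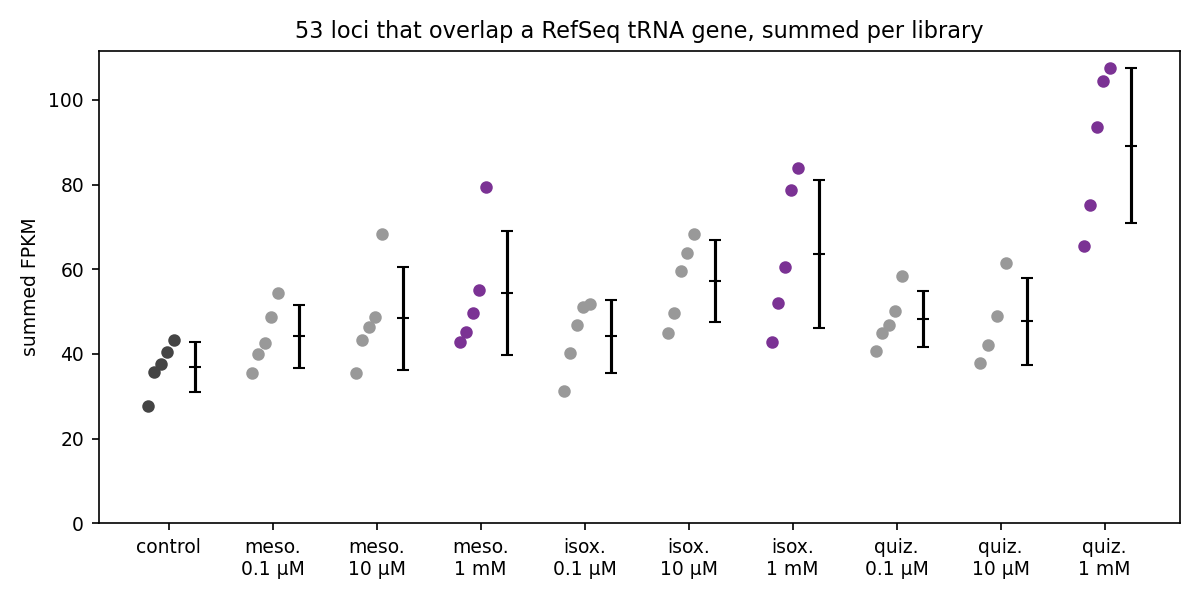
Summed FPKM of 53 loci that overlap a RefSeq tRNA gene, by group and dose. Each point is 1 library, ordered by level within a group, and bars are mean ± SD of 5 libraries (4 for 10 µM quizalofop-p-ethyl). The 1 mM quizalofop-p-ethyl libraries lie between 65.4 and 107.5 FPKM and the controls between 27.7 and 43.2 FPKM.

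Isoxaflutole at 1 mM changed 72 of the 2723 loci (2.64%), of which 19 rose and 53 fell, beside 4.48% of all features called (2.24% in each direction). Their median log2 fold change was −0.13, against 0.00 over all features, and 126 loci (4.63%) had no overlap with control, against 6.55% of all features. With the library that stands apart, 6 passed, and without control replicate 2, 42. The summed mesenchymal markers held 75.8 to 80.5 FPKM against 106.3 to 118.8 FPKM in control (4 of 6 fell) and the biliary markers 484.3 to 610.0 against 636.1 to 726.2 FPKM (2 of 5 fell, 1 rose). Hepatocyte markers held 11895 to 19573 FPKM, below every control, with 0 of 12 called. The part of these markers' cells in the result was not tested. MSTRG.36126 (chr6:64024064-64033380, plus strand), opposite to EYS, fell from 2.53, 2.67, 2.47, 2.37 and 1.78 FPKM in control to 0.705, 1.67, 1.41, 0.589 and 0.566 FPKM. The log2 fold change was −0.79 (SE 0.14, adjusted p = 0.000101). MSTRG.5663, opposite to VTI1A, a vesicle fusion protein, fell from 2.24 to 1.23 FPKM (log2 fold change −0.54, SE 0.11) while VTI1A held 6.14 and 6.62 FPKM (adjusted p = 0.659). MSTRG.32041 beyond FGB fell to 22, 32.7, 38, 29.3 and 37.9 FPKM, below every control (log2 fold change −1.33, SE 0.30, adjusted p = 0.00416), while FGB at 1017 against 1822 FPKM did not pass (adjusted p = 0.337). The call of MSTRG.32041 was lost with a pseudocount of 0.1 and in the fit of 50 libraries (adjusted p up to 0.506).

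Both loci described next rose with isoxaflutole and with quizalofop-p-ethyl, comparisons that share the controls. MSTRG.34784 (chr5:173766730-173767233), over the RefSeq lncRNA LOC124901138, held 1.18, 0.616, 0.449, 0.601 and 1.02 FPKM in control, 3.51, 1.65, 2.03, 1.44 and 2.83 FPKM with isoxaflutole and 4.08, 3.48, 4.58, 3.75 and 5.24 FPKM with quizalofop-p-ethyl. The log2 fold changes were 0.87 (SE 0.16, adjusted p = 0.000302) and 1.57 (SE 0.16, adjusted p = 4.03e-11). MSTRG.45433 (chrX:139720533-139720930), over BCYRN1P1, a pseudogene of the brain RNA BC200, held 0, 8.14, 6.29, 10 and 6.34 FPKM in control and 13.1, 19.9, 24.9, 13.7 and 17.4 FPKM with isoxaflutole (log2 fold change 1.72, SE 0.48, adjusted p = 0.0253). That call was lost in 7 of 16 alternatives, among them the fits without control replicate 1 and without isoxaflutole replicate 2 or 3, with an adjusted p of up to 0.257.

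Mesotrione at 1 mM changed 26 loci (0.955%), of which 3 rose and 23 fell, beside 1.85% of all features called (0.392% higher, 1.46% lower), with a median log2 fold change of −0.06 against −0.01 over all features. No overlap with control was seen in 75 loci (2.75%), against 4.06% of all features. The count depends on the libraries. It was 14 without mesotrione replicate 1, and 15, 16 and 17 when control replicate 2, 4 or 5 was left out. It was 3 with the library that stands apart. The summed mesenchymal markers held 71.3 to 78.5 FPKM (2 of 6 fell) and the biliary markers 424.8 to 561.0 FPKM (2 of 5 fell), both below every control, and the hepatocyte markers 12824 to 22508 FPKM (0 of 12 called). Their part in the result was not tested. MSTRG.30876 (chr4:44181223-44182880), within KCTD8, a subunit of GABA-B receptors, held 2.25, 2.2, 3.05, 2.91 and 2.58 FPKM in control and 0.832, 0.921, 1.47, 1.33 and 1.3 FPKM with mesotrione (log2 fold change −0.73, SE 0.13, adjusted p = 0.000655). It also fell with isoxaflutole, to 1.28 FPKM, and with quizalofop-p-ethyl, to 0.874 FPKM.

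MSTRG.22518 (chr2:75239195-75279714, plus strand), spliced and over the RefSeq lncRNA TACR1-AS1, rose with mesotrione from 2.18, 3.02, 3.59, 2.32 and 2.42 FPKM in control to 4.51, 5.34, 4.72, 3.66 and 5.06 FPKM. The log2 fold change was 0.62 (SE 0.14, adjusted p = 0.00619), and it was 0.24 with isoxaflutole (adjusted p = 0.385) and 0.70 with quizalofop-p-ethyl (adjusted p = 3.09e-05). MSTRG.15521 (chr16:67810894-67811117), a locus of 224 bases in an intron of TSNAXIP1, rose with all 3 herbicides. Its controls held 49.9, 62.7, 61.8, 41.1 and 49.6 FPKM. It held 65, 121, 138.9, 94.4 and 103.7 FPKM with mesotrione, 93, 135.9, 135.2, 94.9 and 96.8 FPKM with isoxaflutole and 82.1, 251.2, 333, 272 and 102.7 FPKM with quizalofop-p-ethyl, each at 1 mM.

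No 1 mM library of MSTRG.15521 overlapped the controls. The log2 fold changes were 0.94 (SE 0.24, adjusted p = 0.0241), 1.05 (SE 0.24, adjusted p = 0.00416) and 1.77 (SE 0.24, adjusted p = 3.5e-08). At the lower doses the locus held 32.1 to 73.9 FPKM per library, and TSNAXIP1 itself held 0.251 FPKM in control. The mesotrione call of MSTRG.15521 was lost in 7 of 16 alternatives, among them the fits without control replicate 1, 4 or 5 and without mesotrione replicate 2 or 3, with an adjusted p of up to 0.401.

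Compared directly at 1 mM, isoxaflutole and mesotrione differed in 1 locus, higher with isoxaflutole, beside 0.509% of all features (0.458% higher, 0.0509% lower), with 134 loci at an unadjusted p under 0.05. Quizalofop-p-ethyl differed from isoxaflutole in 503 loci (189 higher, 314 lower, beside 40.3% of all features, 16.1% higher and 24.2% lower) and from mesotrione in 548 (177 higher, 371 lower, beside 41% of all features, 17.4% higher and 23.6% lower). Fitted with their 2 groups alone, isoxaflutole and mesotrione differed in 2 loci, both lower with isoxaflutole, and with a pseudocount of 0.1 in 0. These comparisons do not use the controls.

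At 0.1 µM and 10 µM, 0 of the 2723 loci passed the limma test in any of the 6 comparisons with control, beside 0% to 0.0102% of all features. An unadjusted p under 0.05 was found in 118 loci at 0.1 µM and 91 at 10 µM mesotrione, 149 and 119 with isoxaflutole, and 107 and 142 with quizalofop-p-ethyl. A change at these doses was not detectable with 4 or 5 libraries a group, which does not show that the loci kept their level.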

How the data were processed

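Total RNA of HepaRG cells, in 50 libraries, was sequenced as 75 bp paired reads after removal of ribosomal RNA with a stranded kit, in 3 pools, per the labels' protocols, which the labels do not tie to libraries. Tools named without versions in the submitters' processing notes are StringTie, HISAT and HISAT2, on GRCh38. The authors deposited FPKM per transcript and library, with coordinates, length and exon number. Negative FPKM among the deposited values, 24 in all, were replaced by 0, and 1 broken line was rejoined.

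Transcript FPKM were summed per locus. The table was placed on GENCODE v29, in which 98.63% of its Ensembl transcripts had the same position, and on RefSeq tables of GRCh38.p14. Depth was estimated from the FPKM step of 1 fragment. The test was that of limma 3.58.1 (R 4.3.3) on log2(FPKM + 1), with 1 mean per group, trend and robust settings, over 49 libraries and 19639 features with at least 1 FPKM in at least 5 libraries, for 12 comparisons, 9 with control and 3 between herbicides at 1 mM. Overlaps used bedtools 2.31.1 and tables pandas 2.3.3 in Python 3.11.15. The fit was tested on simulated data.

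The loci, lists and comparisons were chosen with earlier results of these data known. Named loci were the 10 with the highest control median and, in each 1 mM comparison with control, up to 8 loci with the largest rise and 8 with the largest fall among those called with at least 2 FPKM in the higher group and no overlap, 3 and 3 in direct comparisons, with the gene each overlaps or lies nearest to within 5 kb. Not every such locus is printed, and loci outside the rule are stated as such. Some items are not reported here. Replicates are numbered in accession order. The sample numbers form 5 runs of consecutive numbers, each with a library of every group, and the main fit has no term for the run. Correlations of deviations from group means ran from −0.199 to 0.187 within a run. Between libraries of different runs and groups they ran from −0.188 to 0.19. These ranges alone do not show whether the runs pair the samples, and what the runs stand for is not in the labels.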

Additional observations from a re-analysis of the deposited data

Results flagged for a closer look

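Among 93 groups of 4 or 5 libraries, 11 had a library apart from its group by Dixon's criterion, which chance gives in about 1 group in 20. In control, replicate 5 stood apart for MSTRG.25815, a locus opposite to MIR3687-2 (179.8 FPKM, next 725.4), MSTRG.32041 (114.9, next 79.1), MSTRG.43370 (495.3, next 201.8) and MSTRG.6192 (9.24, next 6.53). Replicate 1 did for MSTRG.36028 (148, next 52.6), replicate 2 for MSTRG.26168 (1.61, next 1.07) and replicate 3 for MSTRG.44121 (2.1, next 2.35). At 1 mM quizalofop-p-ethyl, replicate 1 stood apart for MSTRG.32045 (13.2, next 1.23) and replicate 4 for MSTRG.31498 (0.739, the others listed at 0).

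The share of summed FPKM held by the 2723 loci was 6.49% in replicate 2 of 0.1 µM quizalofop-p-ethyl (next 4.33%) and 5.48% in control replicate 3 (next 4.43%).

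The herbicides differed when tested against each other at 1 mM, isoxaflutole from mesotrione in 1 locus, quizalofop-p-ethyl from isoxaflutole in 503 and from mesotrione in 548. The ribosomal RNA loci held 37.3% of the summed FPKM of replicate 5 of 10 µM quizalofop-p-ethyl, which is outside the fit, against at most 1.55% in control.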

How the results depend on the processing

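Relative to their size, counts of called loci moved more at 1 mM mesotrione and isoxaflutole than at 1 mM quizalofop-p-ethyl. Mesotrione gave 26, but 15 without the filter, 9 with the 2 groups alone and 3 with 50 libraries. Isoxaflutole gave 72, but 39 without the filter and 6 with 50 libraries. Quizalofop-p-ethyl at 1 mM gave 705, and 509 to 786 under all alternatives other than leaving out a library. At 10 µM it gave 0, and 1 with the 2 groups alone. Isoxaflutole against mesotrione gave 1, but 0 with a pseudocount of 0.1, 2 with the 2 groups alone and 0 with 50 libraries. The 1 locus was higher with isoxaflutole, and the 2 were both lower. Quizalofop-p-ethyl against mesotrione gave 548, but 357 with 50 libraries. Leaving out 1 library in turn gave 14 to 23 for mesotrione, 42 to 59 for isoxaflutole and 587 to 706 for quizalofop-p-ethyl at 1 mM, 0 to 1 for quizalofop-p-ethyl at 0.1 µM (1 without its replicate 2), 0 to 3 for isoxaflutole against mesotrione (3 without mesotrione replicate 1, 0 without isoxaflutole replicate 1 or mesotrione replicate 2, 2 without isoxaflutole replicate 2 or 5), 438 to 497 for quizalofop-p-ethyl against isoxaflutole and 444 to 535 against mesotrione. The cause of these moves was not tested. The 50th library enters the shared spread, and no filter means 62822 features tested.

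With a replicate block by run of sample numbers, more loci were called. The counts at 1 mM mesotrione, isoxaflutole and quizalofop-p-ethyl were 37, 100 and 744, against 26, 72 and 705 in the main fit. At 10 µM quizalofop-p-ethyl the count was 1, against 0. The number of loci was 2723, but 11093 at 0.5 FPKM, 408 at 2 FPKM and 520 in at least 25 libraries. Distant loci were 704, and 435 with a limit of 20 kb.

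Of the calls of named loci, 8 with mesotrione, 21 with isoxaflutole and 59 with quizalofop-p-ethyl at 1 mM, the direction held under all 16 alternatives. The call was lost under at least 1 of them for 8, 20 and 10 loci. At 1 FPKM a short locus rests on few fragments, and FPKM of loci near the fragment length depend on how length is corrected.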

Other observations

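Some values stand outside the comparisons above. MSTRG.44121 (KI270750.1, minus strand), on an unplaced scaffold, held 2.34 FPKM in control, and fell to 1.37 FPKM with 1 mM mesotrione (log2 fold change −0.50, SE 0.13, adjusted p = 0.0276) and 1.27 FPKM with 1 mM isoxaflutole (log2 fold change −0.56, SE 0.13, adjusted p = 0.00486), but held 2.08 FPKM with 1 mM quizalofop-p-ethyl (adjusted p = 0.437). The mesotrione call was lost in 9 of 16 alternatives, 7 of them fits that leave out mesotrione replicate 1, 3 or 4 or control replicate 1, 2, 4 or 5.

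Of 90 loci on scaffolds, 29 fell and 3 rose at 1 mM quizalofop-p-ethyl, beside 25.7% of all features called lower and 17.7% higher. MSTRG.10622, a locus of 9594 bases opposite to DLEU2, chosen after its values were seen, fell from 0.873 to 0.202 FPKM at 1 mM quizalofop-p-ethyl (log2 fold change −0.62, SE 0.13, adjusted p = 0.000108), and DLEU2 fell from 1.31 to 0.113 FPKM.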
